A study of Mus musculus with 6 samples.

Results

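Protein tyrosine phosphatases take phosphate off tyrosines in proteins and so reverse the work of tyrosine kinases. The classical members of the family carry gene symbols of 2 kinds, Ptpr for the receptor type, which crosses the cell membrane, and Ptpn for the non-receptor type, which lies inside the cell. Every gene of the table whose symbol was Ptpr with a letter, or Ptpn with a number, was taken, which gave 38 of 24129 gene names, 21 of the receptor type and 17 of the non-receptor type. RNA of T1 cells (4T1A in the labels) was compared with RNA of T2 cells (4T1NA), with 3 replicates of each. Both populations descend from 4T1GFP cells, a GFP-tagged mouse mammary carcinoma line of BALB/c origin that was injected into the mammary fat pad, and both were cultured in DMEM/F-12 with fetal bovine serum. T1 cells had low GFP, grew attached with an epithelial shape and proliferated fast, and were labelled aggressive in the animal. T2 cells had high GFP, were round and loosely attached, proliferated slowly, were labelled less aggressive and were passaged without trypsin. Both were sorted from a culture of sorted cancer associated fibroblasts that GFP-positive tumor cells had overgrown, so each is a population selected in culture and not the tumor as a whole. The labels tie no replicate to an animal, so p-values measure the spread between these cultures.

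In a carcinoma cell the receptor type phosphatases are known for their place at cell-cell junctions and at the attachment to matrix, where cadherins, catenins and Src family kinases are among their substrates. The non-receptor type holds both brakes and accelerators of growth factor signalling. SHP1 (Ptpn6) mostly lowers signals and is best known from blood cells, while SHP2 (Ptpn11) is needed for full activation of the Ras pathway by most growth factor receptors. Which of these genes differ in RNA level between an attached, epithelial and a round, loosely attached population of the same tumor was the question asked of the data.

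The members with the largest differences in each direction are shown with the DNA next to their start sites, from RefSeq on build GRCm38.p6. Ptprv had no match in the RefSeq table of start sites, and its start was taken from the GENCODE vM21 gene annotation. Ptpn7 and Ptprv are shown first because their starts face each other, with 105 bases between the annotated genes (chr1:135132595-135132699, given on the strand of Ptpn7). Ptprk and Ptpn6 follow, each with the 250 bases before its start (chr10:28074570-28074819 on the plus strand and chr6:124738710-124738959 on the minus strand). Capitals mark matches to GGGCGG (GC box) or CAGGTG (E-box) on either strand, motifs that were chosen after the values were seen. The ETS core, CCAAT box, AP-1 and TATA motifs were also scanned and had no match in the sequences printed here.
Ptpn7 and Ptprv: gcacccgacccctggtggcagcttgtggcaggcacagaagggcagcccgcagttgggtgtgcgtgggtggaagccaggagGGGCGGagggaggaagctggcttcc
Ptprk: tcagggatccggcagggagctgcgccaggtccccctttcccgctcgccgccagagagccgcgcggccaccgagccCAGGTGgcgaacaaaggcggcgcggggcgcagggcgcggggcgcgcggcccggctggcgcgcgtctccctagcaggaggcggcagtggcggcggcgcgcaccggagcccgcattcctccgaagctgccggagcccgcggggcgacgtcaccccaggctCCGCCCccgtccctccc
Ptpn6: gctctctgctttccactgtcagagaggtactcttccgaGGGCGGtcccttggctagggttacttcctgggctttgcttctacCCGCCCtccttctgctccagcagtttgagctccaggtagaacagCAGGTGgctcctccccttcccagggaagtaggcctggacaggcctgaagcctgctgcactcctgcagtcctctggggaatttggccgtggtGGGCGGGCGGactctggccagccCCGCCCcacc
The sequence between Ptpn7 and Ptprv held 1 GC box, at position -25 counted from the start of Ptpn7 at chr1:135132700. RefSeq also gives Ptpn7 a start at chr1:135133309, whose window is not printed and held 1 GC box at -28. A GC box stood in 25.19% of all windows of that length before a start in the RefSeq table. The Ptprk window held 38 CG pairs, against a median of 6 over the 32851 windows of 250 bases. The Ptpn6 window held 7, and the 250 bases before chr1:135132700 (Ptpn7) held 9. A high count was not particular to Ptprk: Ptpn1, lower in T1 cells, had 41 and Ptprm, without a read, had 37. The Ptprk window also held 1 GC box at -17 and 1 E-box at -175. The Ptpn6 window held 5 GC boxes, the pair at -33 and -29 overlapping, and 1 E-box at -124. Over all windows of 250 bases, 32.74% held a GC box and 17.22% held an E-box. These matches describe the letters only.

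The depth was 18133227 to 20839686 reads on genes per library, and 1 read was worth 0.928 to 1.058 normalized counts, the unit of the deposited values. The comparison took in genes whose mean over the samples reached 10 normalized counts, and 23 of the 38 members did. This share (60.5%) stood beside 47.7% of all gene names in the table. A further 8 members had no read in any library, and 7 had at most 8 reads in any library and were not compared. The non-receptor type was the more widely detected, with 15 of 17 members compared, against 8 of 21 of the receptor type. A count of 0 allows up to 3 reads in a library of this depth. In such bulk samples, fewer cells that use a gene and less RNA per cell cannot be told apart.

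An adjusted p-value under 0.01 was reached by 16 of the 23 members compared (69.6%), beside 49.5% of the 11514 genes compared (limma on log2(normalized count + 1), Benjamini-Hochberg adjustment). In T1 cells 7 members were higher (Ptprk, Ptpru, Ptprf, Ptpn18, Ptprj, Ptpn21 and Ptpn11), and 25.1% of all genes compared were. In T1 cells 9 members were lower (Ptpn7, Ptprv, Ptpn6, Ptpn13, Ptpn1, Ptpn23, Ptprs, Ptpra and Ptpn12), against 24.4% of all genes compared. When a log2 fold change beyond 2 was also required, 0 members remained higher, beside 4.17% of all genes. Under both filters 3 members were lower (Ptpn7, Ptprv and Ptpn6), beside 4.2% of all genes. The median log2 fold change of the members, T1 minus T2, was 0.02, and that of all genes compared was -0.01. Their median absolute log2 fold change was 0.59, against 0.45 for all genes compared. The T1 and T2 values of 20 of the 23 members did not overlap (87.0%), 9 of them higher and 11 lower in T1 cells, and the same was true of 68.1% of all genes compared. With 3 samples against 3, an exact two-sided permutation test cannot give a p-value below 0.1. Fold changes are on the log2(normalized count + 1) scale, so that the change of a gene with few reads comes out too small.

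**Figure D1:**
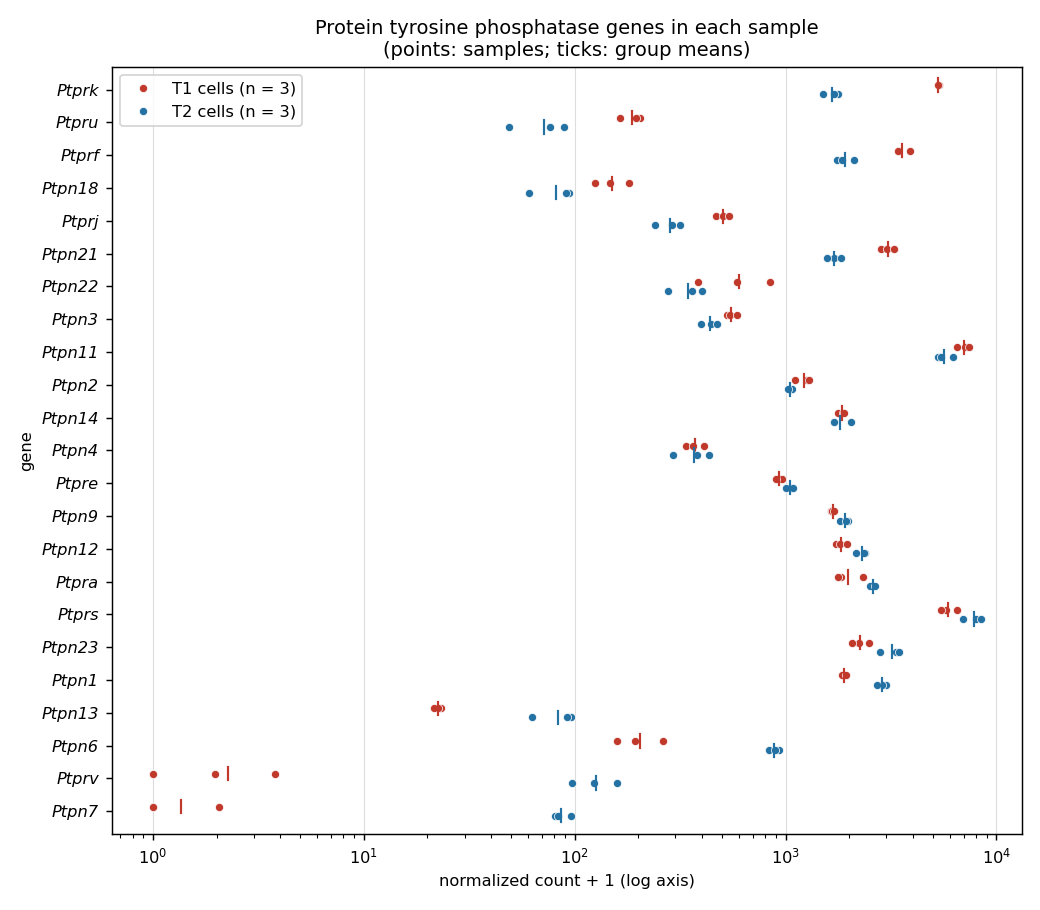
Normalized count + 1 of the 23 members compared, on a log axis, with 1 point for each of the 3 T1 and 3 T2 samples and a tick at each group mean. Ptpn7 and Ptprv are near 0 in T1 cells and at 79.3 to 157 in T2 cells, and the Ptprk samples of T1 cells lie together far above those of T2 cells.

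**Figure D2:**
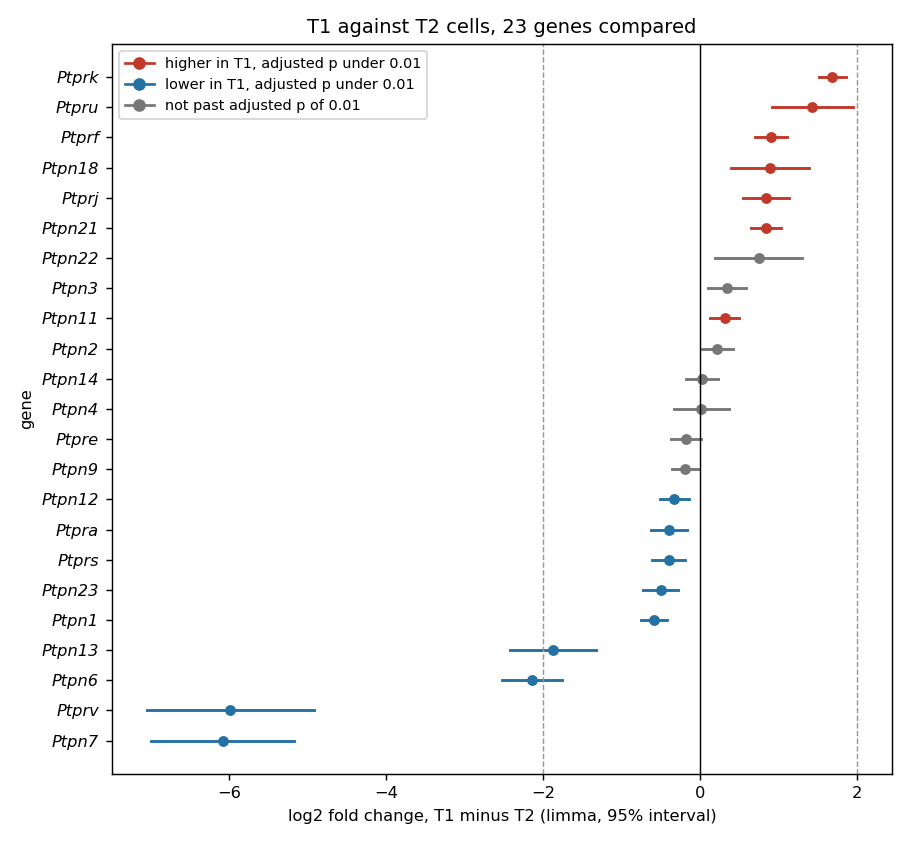
Log2 fold change of each member compared, T1 minus T2, with its 95% interval from limma, coloured by whether it passed an adjusted p-value of 0.01, with dashed lines at -2 and 2. The estimates run from -6.08 for Ptpn7 to 1.69 for Ptprk.

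Among the receptor type, both compared members of the subfamily with an extracellular MAM domain were higher in T1 cells. These receptors bind a copy of themselves on the neighbouring cell and sit at cell-cell contacts. Ptprk, which is known to act on catenins at such contacts, had 5284, 5353 and 5282 normalized counts in the T1 samples and 1502, 1764 and 1688 in the T2 samples. The T1 samples of Ptprk lay close together, far above all T2 samples, and the groups did not overlap. Its mean was 5306 ± 40.4 (SD, n = 3) in T1 and 1651 ± 135 in T2 cells, 3.21-fold higher in T1 cells. The log2 fold change was 1.69 (SE 0.08, 95% interval 1.51 to 1.86, adjusted p = 6.36e-08). Ptpru, another receptor of the same build, was expressed at a far lower level per length. It had 163, 204 and 193 normalized counts in T1 and 48.0, 88.1 and 75.2 in T2 samples. All T1 values of Ptpru were above all T2 values, with a log2 fold change of 1.43 (SE 0.23, adjusted p = 0.000353). The remaining MAM receptors were not compared. Ptprm had no read, and Ptprt had 0 reads in each T1 library and 5, 6 and 5 reads in the T2 libraries.

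The LAR subfamily, cell surface receptors that bind heparan sulfate proteoglycans and hold liprins on their inner side, split by member. Ptprf, the LAR receptor itself, had 3419, 3405 and 3886 normalized counts in T1 and 1750, 2119 and 1850 in T2 samples. It was 1.87-fold higher in T1 cells, with no overlap (log2 fold change 0.91, SE 0.09, adjusted p = 1.55e-05). Ptprs, which binds both heparan and chondroitin sulfate chains, went the other way. Its values were 5751, 5467 and 6518 in T1 and 8011, 8452 and 6931 in T2 samples. The T2 values of Ptprs were all above the T1 values, by a smaller margin (log2 fold change -0.40, SE 0.10, adjusted p = 0.00428). This call was lost when any of T1 replicate 1, T1 replicate 2, T2 replicate 1 or T2 replicate 2 was left out, with an adjusted p of at most 0.0215. Ptprd, the neuronal member, had no read. The summed normalized counts of the 3 LAR genes were 9482 in T1 and 9704 in T2 cells.

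Of the receptors whose outer part is built mainly of fibronectin repeats, Ptprj and Ptprv were compared. Ptprj (DEP-1), a brake on growth factor receptors, was at 503 ± 35.6 in T1 and 281 ± 37.9 normalized counts in T2 cells (n = 3 each). The difference in Ptprj was a log2 fold change of 0.84 (SE 0.13, adjusted p = 0.000297). Ptprb of endothelium and Ptprq of the inner ear had no read in any library. Ptprh had a single read, in a T2 library, and Ptpro had 1 read in each of 2 libraries, so neither was compared.

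Ptprv, first described as a phosphatase of bone-forming cells, was close to absent from T1 cells. It had 0, 3 and 1 reads in the T1 libraries and 98, 120 and 169 in the T2 libraries. The mean was 1.26 ± 1.42 normalized counts in T1 and 125 ± 30.5 in T2 cells (n = 3 each). From 4 T1 reads and 387 T2 reads the level in T2 cells was 95.8-fold higher, with an exact counting interval of 37.1 to 353 that covers counting error only. The fitted log2 fold change was -5.98 (SE 0.48, adjusted p = 2.50e-06). The gene annotation used here (GENCODE vM21) lists Ptprv as a processed transcript with no coding call. Its exons share 345 bases, 4.94% of their length, with Gm10535 on the opposite strand, and the library kit does not mark strand, so reads of the pair cannot be told apart there.

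Ptpn7 and Ptprv had the lowest T1 values relative to T2 of all the members compared, and they are neighbours. Ptpn7 (HePTP), a small phosphatase of blood cells that acts on the MAP kinases ERK and p38, occupies chr1:135132700-135145317 on the plus strand. Ptprv occupies chr1:135108497-135132594 on the minus strand, so that the 105 bases printed above lie upstream of both genes. Over the annotation, 511 pairs of protein-coding genes face each other at 200 bases or less, a count to which Ptprv was added and that includes this pair. Ptpn7 had 1, 0 and 0 reads in the T1 libraries and 81, 80 and 102 in the T2 libraries. T1 cells thus had 1 read in all against 263, a ratio of 260 with an exact counting interval of 46.3 to 10320. The mean in T2 cells was 85.3 ± 8.21 normalized counts, and the fitted log2 fold change was -6.08 (SE 0.41, adjusted p = 7.68e-07). The fitted fold change of this pair depends on the pseudocount. With a pseudocount of 5 it was -4.08 for Ptpn7 and -4.38 for Ptprv, and with 0.5 it was -6.87 and -6.52. In T2 cells both genes stayed low per length, at 14.0 ± 1.34 (Ptpn7) and 17.9 ± 4.36 (Ptprv) normalized counts per kb of exon. Ptpn5 and Ptprr, which share the kinase interaction motif of Ptpn7 and are known from the brain, were at 3, 6 and 8 reads in T1 and 5, 3 and 4 in T2 libraries for Ptpn5, and at 1 read over all libraries for Ptprr.

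The genes around the Ptpn7 and Ptprv pair did not all move with it. Within 200 kb of the start of Ptpn7, a distance chosen after the values were seen, 9 other protein-coding genes are annotated and 7 of them were compared. On the near side of the pair, Lgr6, a receptor for R-spondins, was 7.24-fold lower in T1 cells, at 242 ± 17.4 against 1752 ± 517 normalized counts (log2 fold change -2.81, adjusted p = 4.46e-07). Arl8a, a lysosomal GTPase gene that lies next to Ptpn7, had a log2 fold change of -0.64 (adjusted p = 0.000140), and Ube2t one of -0.64 (adjusted p = 0.00218). The other 4 genes compared, all farther from the pair than Lgr6 and Arl8a, were higher in T1 cells. Elf3, an epithelial transcription factor gene, had a log2 fold change of 2.07 (adjusted p = 1.74e-06), and Ppp1r12b, Rnpep and Timm17a had 0.996, 0.73 and 0.58. Gpr37l1 and Lmod1 had no read.

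**Figure D3:**
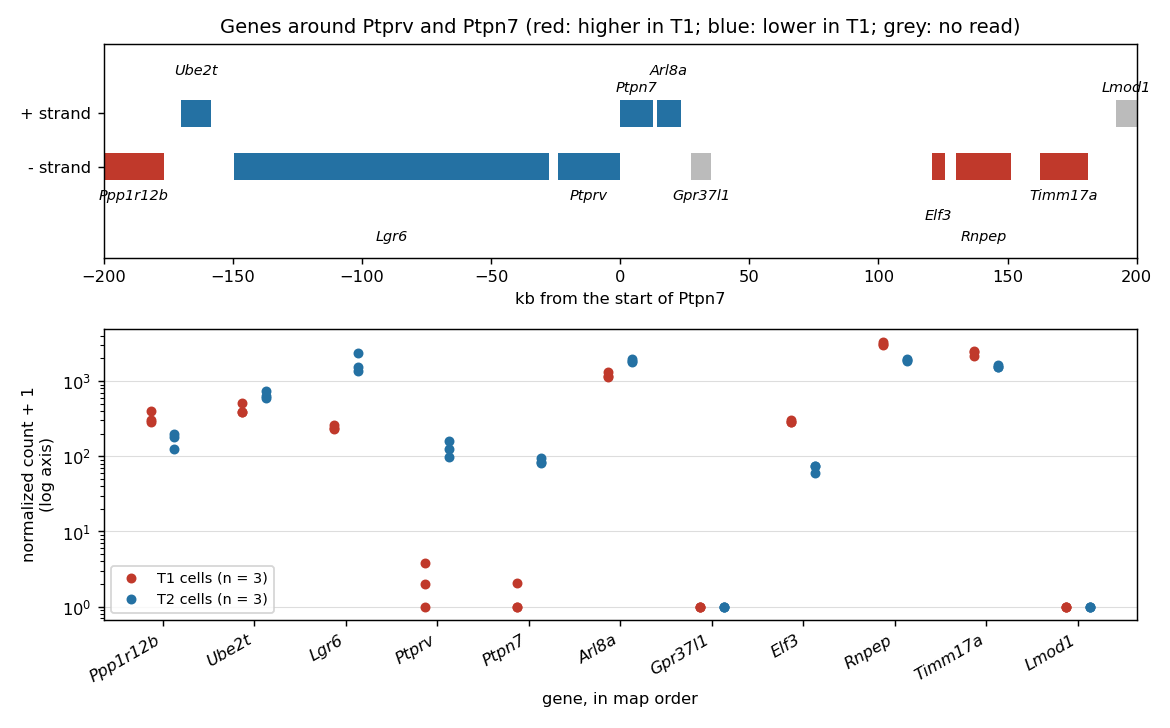
Upper panel, protein-coding genes and Ptprv within 200 kb of the start of Ptpn7, by strand and distance in kb, coloured by the direction of the call at an adjusted p-value of 0.01 (grey, no read). Lower panel, normalized count + 1 of each gene in the 3 T1 and 3 T2 samples on a log axis. The nearest genes with reads on either side, Lgr6 and Arl8a, had log2 fold changes of -2.81 and -0.64.

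The other receptor type genes were close to even or near 0. Ptpra, which releases Src family kinases from their inhibitory tail phosphate, was at 1978 ± 297 in T1 and 2588 ± 70.1 normalized counts in T2 cells. The log2 fold change of Ptpra was -0.40 (SE 0.10, adjusted p = 0.00669), and the call was lost in 5 of the 6 fits that leave out 1 sample, with an adjusted p of up to 0.0324. It was kept only without T1 replicate 3, whose 2319 stood above the 1837 and 1778 of the other T1 samples. Ptpre, its closest relative, did not pass the test (log2 fold change -0.18, 95% interval -0.37 to 0.01, adjusted p = 0.0916). Ptprc, the CD45 antigen of all leukocytes, had 0 reads in each T1 library and 5, 6 and 3 in the T2 libraries. Ptprg and Ptprz1, whose outer parts resemble carbonic anhydrase, had no read. Of the secretory granule members, Ptprn2 had no read and Ptprn had at most 4 reads in a library.

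Of the non-receptor type, the SH2 domain phosphatases Ptpn6 and Ptpn11 moved in opposite directions. Ptpn6 (SHP1) had 192, 157 and 263 normalized counts in T1 and 930, 832 and 886 in T2 samples. Every T2 value of Ptpn6 was far above every T1 value. Its mean was 204 ± 53.7 in T1 and 883 ± 49.0 in T2 cells (n = 3 each), 4.33-fold lower in T1 cells. The log2 fold change was -2.14 (SE 0.17, 95% interval -2.52 to -1.76, adjusted p = 2.54e-06). Without T1 replicate 2, the lowest of the T1 samples, it was -1.97 and no longer past the fold filter. The exons of Ptpn6 overlap Gm20531 on the opposite strand by 195 bases, 6.96% of their length. Ptpn11 (SHP2) had 7063, 7397 and 6525 normalized counts in T1 and 5273, 6188 and 5450 in T2 samples. The groups did not overlap, and the log2 fold change of Ptpn11 was 0.31 (SE 0.08, adjusted p = 0.00807). This call was lost in 4 of the 6 fits without 1 sample, namely without T1 replicate 1 or 2 or T2 replicate 1 or 3, with an adjusted p of up to 0.0396.

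Ptpn6, Ptpn7 and Ptpn22 are known from blood cells, and leukocyte markers were therefore read beside them. Ptpn6 and Ptpn7 were called lower in T1 cells. Ptpn22 was higher there but did not pass the test in limma (log2 fold change 0.75, adjusted p = 0.0230). Of 11 leukocyte markers, Cd3e, Tyrobp and Cd52 were at 0 in every library, and only Itgb2 reached a mean of at least 10. The summed level of the 11 markers was 74.1 to 177 normalized counts in T1 samples and 34.3 to 102 in T2 samples. Itgb2 made up most of the T1 sums, at 68.8, 64.2 and 167 normalized counts, against 13.7, 22.5 and 77.0 in T2 samples. The log2 fold change of Itgb2, 1.61, did not pass the test (adjusted p = 0.0295). Ptprcap, which binds CD45, was at 2.0 to 2.8 in T1 and 9.8 to 13.3 in T2 samples. The part of any such cells in the Ptpn6, Ptpn7 and Ptpn22 values was not tested. Of 8 endothelial markers Kdr and Emcn were at 0 in every library, and Flt1 alone was compared (log2 fold change -3.55, adjusted p = 4.00e-09), with a summed level of 272 to 365 in T1 and 3461 to 3930 in T2 samples, nearly all of it Flt1. Of 8 fibroblast markers Col3a1, Pdgfrb and Lum were at 0, the summed level was 225 to 241 in T1 and 997 to 1297 in T2 samples, and Pdgfra made up most of it (log2 fold change -2.45). The fibroblast collagen Col1a1 went the other way, at 14.8, 27.9 and 24.4 normalized counts in T1 and 0.979, 0 and 0 in T2 samples (log2 fold change 4.17, adjusted p = 4.94e-05). Col1a2 had 4, 7 and 12 reads in the T1 libraries and 0 in each T2 library and was not compared. Of 10 epithelial markers 9 were compared and 6 of them were higher in T1 cells (66.7%, beside 25.1% of all genes compared), with 0 lower. These 6 (Epcam, Cdh1, Krt14, Krt7, Cldn4 and Esrp1) also passed the fold filter. Mean Cdh1 was 14748 in T1 and 465 in T2 cells, and mean Epcam was 3141 and 34.7 normalized counts. The keratins Krt8 and Krt18 of simple epithelium were high in both populations and did not pass the test (adjusted p = 0.0534 and 0.394).

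The enzymes PTP1B (Ptpn1) and TCPTP (Ptpn2) are close relatives that act on insulin receptor and JAK proteins. Ptpn1 had 1901, 1853 and 1938 normalized counts in T1 and 2988, 2879 and 2704 in T2 samples, without overlap. It was 1.51-fold higher in T2 cells (log2 fold change -0.59, SE 0.07, adjusted p = 6.31e-05). Ptpn2 was 1217 ± 98.2 in T1 and 1043 ± 24.6 in T2 cells. It did not pass the test (log2 fold change 0.22, 95% interval 0.02 to 0.42, adjusted p = 0.0536).

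The PEST subfamily, whose tails bind adaptors of the cytoskeleton, had 1 member higher, 1 lower and 1 uncalled. Ptpn12 (PTP-PEST), which acts on the focal adhesion proteins p130Cas and paxillin, was 1834 ± 111 in T1 and 2297 ± 127 in T2 cells. Its log2 fold change was -0.32 (SE 0.08, adjusted p = 0.00565), a call lost in 4 of the 6 fits without 1 sample (T1 replicate 1 or 2, T2 replicate 2 or 3), with an adjusted p of up to 0.0274. Ptpn18, known to act on HER2, was at 150 ± 28.1 in T1 and 80.8 ± 18.6 in T2 cells. It had a log2 fold change of 0.89 (SE 0.22, adjusted p = 0.00558), also lost in 4 of those 6 fits (T1 replicate 1 or 3, T2 replicate 2 or 3), with an adjusted p of up to 0.0191. Its exons overlap Gm28417 on the opposite strand by 7.58% of their length. Ptpn22, a phosphatase of lymphocytes that pairs with the kinase Csk, had 383, 586 and 840 normalized counts in T1 and 275, 359 and 399 in T2 samples. The T1 samples of Ptpn22 were the most scattered of any member with over 100 counts, the lowest of them lay inside the T2 range, and the test was not passed (log2 fold change 0.75, 95% interval 0.20 to 1.31, adjusted p = 0.0230). The call of Ptpn22 depended on the tool and on single samples. DESeq2 on the recovered reads called it higher in T1 cells (adjusted p = 0.000728), as did limma without T1 replicate 1 (log2 fold change 1.04, adjusted p = 0.00181), while edgeR did not (adjusted p = 0.0152) and without T1 replicate 3 the log2 fold change was 0.48 (adjusted p = 0.0689).

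All 5 members with a FERM domain, which tethers them under the cell membrane, were compared. Ptpn13 (PTP-BL), a very large scaffold with PDZ domains, had 22.2, 21.4 and 20.5 normalized counts in T1 and 61.7, 95.2 and 90.9 in T2 samples. The T1 values of Ptpn13 lay close together, below all T2 values. Its mean was 3.87-fold higher in T2 cells (log2 fold change -1.88, SE 0.25, adjusted p = 8.30e-05). Ptpn21 (PTPD1), which is known to activate Src, was 3044 ± 212 in T1 and 1700 ± 135 in T2 cells. It was 1.79-fold higher in T1 cells (log2 fold change 0.84, SE 0.09, adjusted p = 1.74e-05). Ptpn3 was 553 ± 30.9 and 436 ± 36.3 and did not pass the threshold (log2 fold change 0.34, adjusted p = 0.0199). Ptpn14, which binds the growth regulator YAP, had a log2 fold change of 0.03 with a 95% interval of -0.17 to 0.23. Ptpn4 had one of 0.02 with an interval of -0.33 to 0.37, and for these 2 genes the T1 and T2 values overlapped.

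Of the remaining non-receptor genes, Ptpn23 and Ptpn9 act on membranes inside the cell. Ptpn23 (HD-PTP), which helps sort receptors in endosomes, was 2259 ± 205 in T1 and 3195 ± 335 in T2 cells. All T2 values of Ptpn23 were above all T1 values (log2 fold change -0.50, SE 0.10, adjusted p = 0.00141). Ptpn9, a phosphatase of secretory vesicles, did not pass the threshold (log2 fold change -0.19, 95% interval -0.36 to -0.02, adjusted p = 0.0480), though its groups did not overlap. Ptpn20 had no read.

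Levels were divided by exonic length so that genes could be set beside each other. That length joins the exons of all annotated transcripts, and the annotation used for counting is not known. Ranks and shares are therefore approximate. Ptpn11 had the highest level of all 38 members in both populations, with 934 ± 58.8 normalized counts per kb of exon in T1 and 752 ± 64.8 in T2 cells. It held 17.6% of the summed level per kb of the family in T1 and 14.1% in T2 cells. Ptpn12 and Ptpn23 were the second and the third in both populations. Ptpn12 had 523 ± 31.6 in T1 and 654 ± 36.3 in T2 cells, and Ptpn23 had 402 ± 36.4 and 569 ± 59.7 normalized counts per kb. In T1 cells the third to the eighth place (Ptpn23, Ptprk, Ptprs, Ptprf, Ptpn2 and Ptpn21) lay between 385 and 402 per kb, closer together than the SD of most of them, so their order there is not resolved. Ptprk was at place 4 in T1 cells at 398 ± 3.03 per kb and stood at place 13 in T2 cells at 124 ± 10.1. Ptpn6 was at place 16 in T1 cells at 72.7 ± 19.2 and at place 8 in T2 cells at 315 ± 17.5. The summed level of the whole family was 5312 ± 172 in T1 and 5335 ± 233 in T2 cells (n = 3 each), a difference smaller than the spread between replicates. The receptor type summed to 1543 ± 92.5 in T1 and 1256 ± 69.5 in T2 cells, and the non-receptor type to 3768 ± 87.3 and 4078 ± 164 normalized counts per kb. The receptor sums did not overlap between the groups, and nor did the non-receptor sums. Both sums hold members called in either direction, and the largest receptor difference per kb was that of Ptprk (398 against 124).

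**Figure D4:**
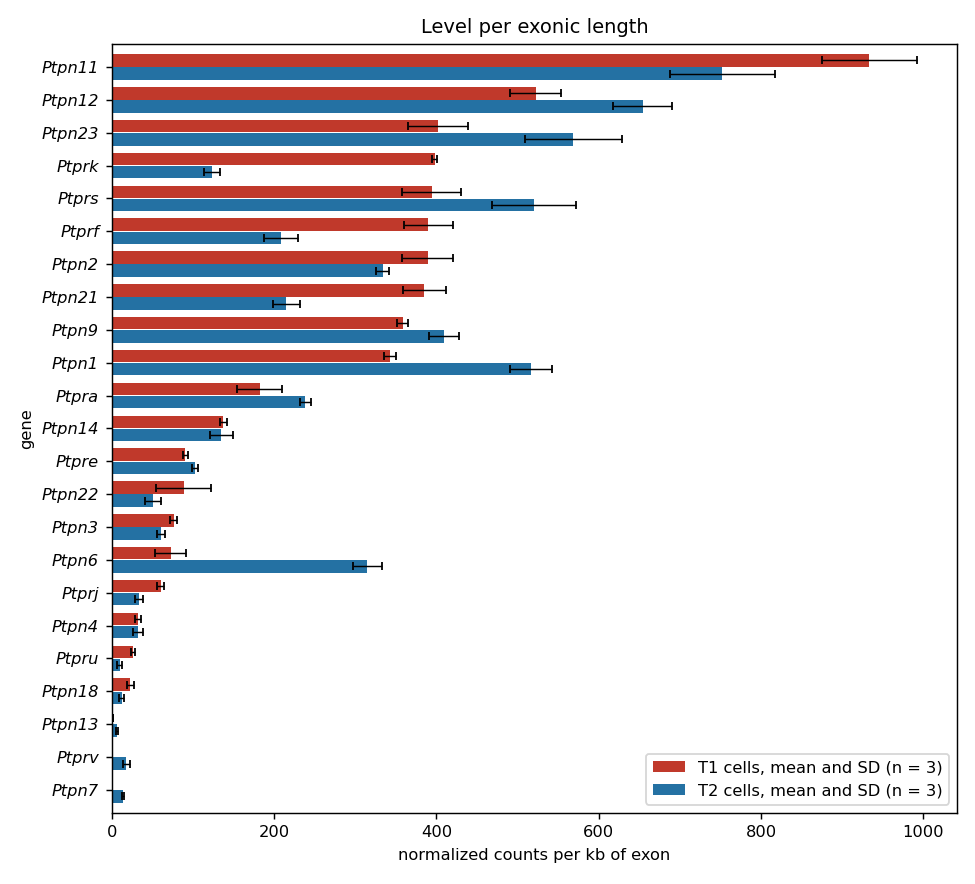
Mean level of each member compared, in normalized counts per kb of exon, for T1 and T2 cells, with bars from 0 and error bars of 1 SD (n = 3 each). Ptpn11 leads in both at 934 and 752, and Ptprk (398 and 124) and Ptpn6 (72.7 and 315) differ most in place.

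Genes that work with these phosphatases were read from lists of their partners. Of 6 liprins and liprin-related genes, which carry LAR receptors inside the cell, 3 were compared. Ppfia3 and Ppfia1 were higher in T1 cells (log2 fold change 1.19 and 0.44), and Ppfibp1 was lower (-0.58). Of 22 ligands and extracellular partners 10 were compared. T1 cells had more RNA of 4 of them and less of another 4, and the median log2 fold change was -0.01. Thbs1, a matrix protein that binds Ptprj, was 4.18 higher on the log2 scale, at 46676 to 56351 normalized counts in T1 and 2705 to 2994 in T2 samples. Gpc4, a heparan sulfate glypican that binds LAR receptors, had no read in any T2 library and 50.2 to 72.0 normalized counts in T1 samples. Against a floor of 3 reads per library, Gpc4 was at least 22.0-fold higher in T1 samples. Il1rap, a partner of LAR receptors at synapses, was lower in T1 cells (-1.64).

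Kinases and substrates downstream also moved both ways. Of the Src family kinases with their regulators Csk and Pag1, 8 of 11 were compared, 2 of them higher and 1 lower. Pag1, the membrane anchor of Csk, had the largest log2 fold change (4.33), followed by Lyn (-1.64) and Lck (1.54). Of 11 genes of focal adhesion proteins and cytoskeletal adaptors 3 were higher and 3 lower in T1 cells. Those that led were Pstpip2 (2.08), Bcar1, which codes for the Ptpn12 substrate p130Cas (1.36), and Ptk2b (-1.33). Pxn, which codes for the Ptpn12 substrate paxillin, was lower in T1 cells (-0.97, adjusted p = 2.63e-06). Of 10 adaptors between SHP2 and Ras 3 were higher and 1 was lower. Gab3, Irs1 and Gab1, docking proteins that recruit SHP2, had log2 fold changes of 2.86, 2.81 and 1.43. The change of Gab3 rested on few reads, 16, 27 and 20 in the T1 and 2, 0 and 8 in the T2 libraries (SE 0.68).

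Among 11 JAK and STAT genes 10 were compared, 3 higher and 4 lower in T1 cells. The list includes targets of PTP1B, TCPTP and SHP1, but not every gene in it is one. Jak2 had 644, 520 and 688 normalized counts in T1 and 5179, 5309 and 6107 in T2 samples, a log2 fold change of -3.17 (SE 0.11, adjusted p = 1.08e-08). Ptpn1 and Ptpn6 were lower in the same T1 samples, and Ptpn2 did not pass the test. Stat2 was higher (1.98) and Tyk2 lower (-1.05) in T1 cells. Of 17 other phosphatases of tyrosine or of the same fold 16 were compared, 2 higher and 6 lower. Eya2 (-2.83), Ptpdc1 (-2.26) and Ptp4a3, the metastasis-linked PRL-3 (2.11), led that list. Called shares of these lists ran from 37.5% (Src family) to 100% (liprins), beside 49.5% of all genes compared.

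**Figure D5:**
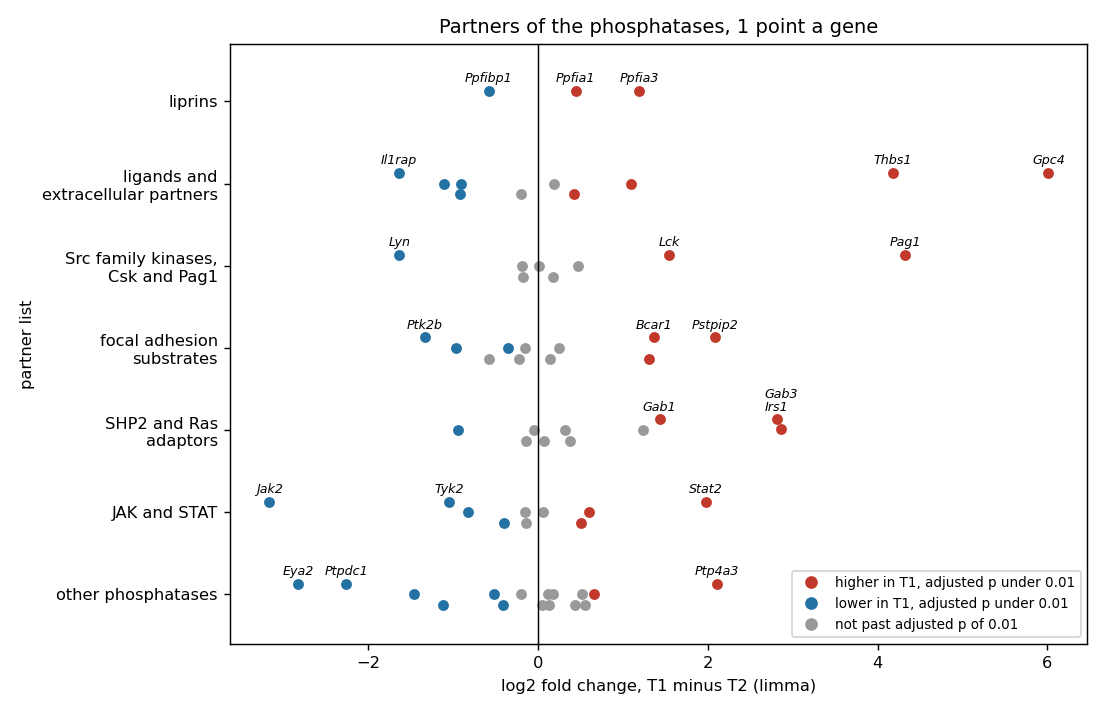
Log2 fold change, T1 minus T2, of each partner gene compared, in 7 lists, with the up to 3 called genes of largest absolute change named and points coloured by the call at an adjusted p-value of 0.01. Every list has called genes on both sides of 0, from Jak2 at -3.17 to Gpc4, whose 6.01 rests on T2 libraries at 0.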

How the data were processed

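RNA of 3 replicates of T1 and 3 replicates of T2 cells was sequenced by the authors from poly(A)-selected TruSeq libraries, which do not mark strand. The authors trimmed reads with Trimmomatic, used TopHat2 for alignment to mm10 and HTSeq for gene counts, and scaled each library by its DESeq2 size factor (median of ratios). The deposited signal is this normalized count. Versions, gene annotation and strand setting are not given in the sources used here. Within a tolerance of 0.1, 100% of the values were whole reads once the size factor was undone, so reads could be recovered. Dates stood in place of 27 gene names, which are not named here.

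T1 and T2 samples were compared by limma 3.58.1 (R 4.3.3). Values were log2(normalized count + 1), the moderated variance was allowed to follow the mean, and 11514 genes entered, those averaging 10 normalized counts or more. P-values were adjusted over all of these by the method of Benjamini and Hochberg, and the thresholds (0.01, and a log2 fold change beyond 2) follow the study's methods. Count tests on the recovered reads, edgeR 4.0.16 (quasi-likelihood) and DESeq2 1.42.0, called 5716 and 6067 genes at an adjusted p-value under 0.01, against 5701 with limma. Other alternatives were the pseudocount (0.5 and 5), the filter on low values (none, or a mean of 50), quantile normalization, no variance trend, the replicate block, and each sample left out.

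Levels per kb used the union of exons in GENCODE vM21, and coordinates are of GRCm38. Of the 38 members, 32 matched the RefSeq table of start sites. Counting intervals are exact, at 95%, and cover counting error only. Every member was named. Values in every sample are given for members past the threshold with an absolute log2 fold change above 1 and for some others that the text turns on. From each partner list the up to 3 called genes of largest absolute log2 fold change were named, and Pxn was added as a Ptpn12 substrate gene. A marker gene of the lists is not reported here. The members and lists were chosen with earlier results of these data known. Figures were drawn with matplotlib 3.10.9.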

Additional observations from a re-analysis of the deposited data

How the results depend on the processing

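Over 15 alternative settings, 10 of the 16 called members (Ptprk, Ptpru, Ptprf, Ptprj, Ptpn21, Ptpn7, Ptprv, Ptpn6, Ptpn13 and Ptpn1) kept their call and direction wherever they were compared, and Ptpn7 was not compared at a mean of at least 50. The other 6 lost the call in at least 1 setting: Ptpn11 and Ptpra in 7 each, Ptpn12, Ptpn18 and Ptprs in 5 each, and Ptpn23 in 1, with an adjusted p of at most 0.0396. Of 344 values of a member under an alternative, 307 kept direction and side of the threshold, 30 lost the call, 3 gained it and 4 changed sign. Those that changed sign were uncalled: leaving out 1 sample gave log2 fold changes of -0.136 to 0.141 for Ptpn4 and -0.016 to 0.114 for Ptpn14. The median over the members ran from -0.136 to 0.114 in those fits. With no filter on low values 5 members were lower past both filters, since Ptprc and Ptprt, at 0 reads in T1 cells, then entered. Without the variance trend 5 members were lower at an adjusted p under 0.01 (Ptpn7, Ptprv, Ptpn6, Ptpn13 and Ptpn1), and the cause was not tested. The replicate numbers are shared by the groups, and same-numbered samples deviated together weakly (correlations 0.0575, 0.172 and 0.104). Of the 6 samples, 5 correlated best with their own number. The labels do not say whether a shared number marks a shared batch, and this was not tested. With the replicate block 8 members were higher and 9 lower, the added one being Ptpn22 (adjusted p = 0.000831), which was also called by DESeq2 (0.000728) and without T1 replicate 1 (0.00181). The 15 members that were not compared had few or no reads at this depth, and the cause was not tested.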
